A study of Mus musculus with 12 samples.

Results

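Voltage-gated calcium and sodium channels open when the membrane depolarises and carry the inward currents of neurons. The genes described here are the 40 protein-coding mouse genes whose symbols begin with Cacna1, Cacna2d, Cacnb, Cacng or Scn followed by a digit, out of 21542 protein-coding genes and 54193 genes in all to which the reads of the study were assigned. They were read in the substantia nigra pars compacta (SNpc), the midbrain nucleus whose dopaminergic neurons are lost in Parkinson's disease, in 12 mice that were 1 week old. The tissue was cut by laser from sections stained with cresyl violet, and each mouse gave 1 library. The mice formed 4 groups of 3, namely OF1-En1+/-, OF1 wild type (WT), C57-En1+/- and C57 WT. In the En1+/- (hemizygous) mice a LacZ insertion makes 1 copy of the homeobox gene Engrailed-1 (En1) null in every cell, whereas WT mice carry no engineered allele. The C57-En1+/- line came from repeated backcrossing of OF1-En1+/- mice to C57Bl/6J, so DNA near En1 may still be of OF1 origin, and all mice were labelled male. No mouse had received a treatment.

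As background, the pore of a calcium channel is its alpha1 subunit, and the alpha1 subunits fall into L-type (Cacna1s, Cacna1c, Cacna1d, Cacna1f), P/Q-, N- and R-type (Cacna1a, Cacna1b, Cacna1e) and T-type (Cacna1g, Cacna1h, Cacna1i) channels. The alpha2delta and beta subunits carry channels to the membrane and tune their gating, and most of the gamma family act as partners of AMPA-type glutamate receptors (TARPs). Sodium channels consist of a pore-forming alpha subunit, which drives the action potential, and small beta subunits with a single membrane span. Adult SNpc dopaminergic neurons are known for pacemaking that runs together with L-type currents of Cacna1d channels.

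The libraries held between 13538864 (SW31) and 168741283 (C5743) estimated read counts, of which 99.3% to 99.4% fell on the matched genes. The dopaminergic markers did not bear out the tissue label in most of them. Th, the rate-limiting enzyme of dopamine synthesis, stood at 2279 TPM (a level per transcript length, scaled to the same total in every library) in the OF1-En1+/- mouse SW22 and at 3286 TPM in the C57 WT mouse C572S, but at 0.215 to 34.2 TPM in the other 10 libraries. Over 10 dopaminergic markers the sums were 6871 TPM in SW22, 10805 TPM in C572S and 32.8 to 174 TPM in the others. Not every marker split this way, and Ret had 34.7 TPM in C572 against 29.2 TPM in SW22. En1 itself had 691 normalized counts in SW22, 1071 in C572S and at most 15.2 elsewhere. It could therefore not serve as a check of genotype. Xist had 1330 normalized counts in C572, a C57-En1+/- mouse, and no more than 34.9 in any other library. Ddx3y and Eif2s3y of the Y chromosome were at 0 in C572 and at 484 or more in the others. Of the Y genes Uty and Kdm5d, Uty had 2.09 in C572 and at least 113.4 elsewhere. Kdm5d was not near 0 in C572, with 58.5 there and at least 268.7 elsewhere. These values go against the label male for that mouse. The counts of edgeR calls were therefore also made without SW22 and C572S together and without each library in turn. In tissue of this kind, fewer cells of a type and less RNA per cell cannot be told apart.

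Of the 40 genes, 35 had a mean of at least 10 normalized counts (reads scaled to a common depth) and were tested. The 5 below that minimum were Cacna1f, Cacng1, Cacng6, Cacng7 and Scn10a. Per transcript length, the highest of all were Cacnb3, with 82.7 ± 38.0 TPM (SD over the 12 libraries), and Scn3b, with 64.3 ± 33.5 TPM. Cacng3 followed with 38.7 ± 17.1 TPM and Cacng5 with 26.3 ± 16.3 TPM. In this order, each gene's mean lay above the next by less than its own SD, but Scn3b lay above Cacng3 by more than the SD of Cacng3. In all, 13 members averaged at least 10 TPM and 12 averaged less than 1 TPM. None of the pore-forming calcium alpha1 genes other than Cacna1g, with 13.4 ± 8.74 TPM, averaged more than 2.37 TPM, and even Cacnb3 stood only at the 89.0th percentile of all tested genes.

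**Figure D1:**
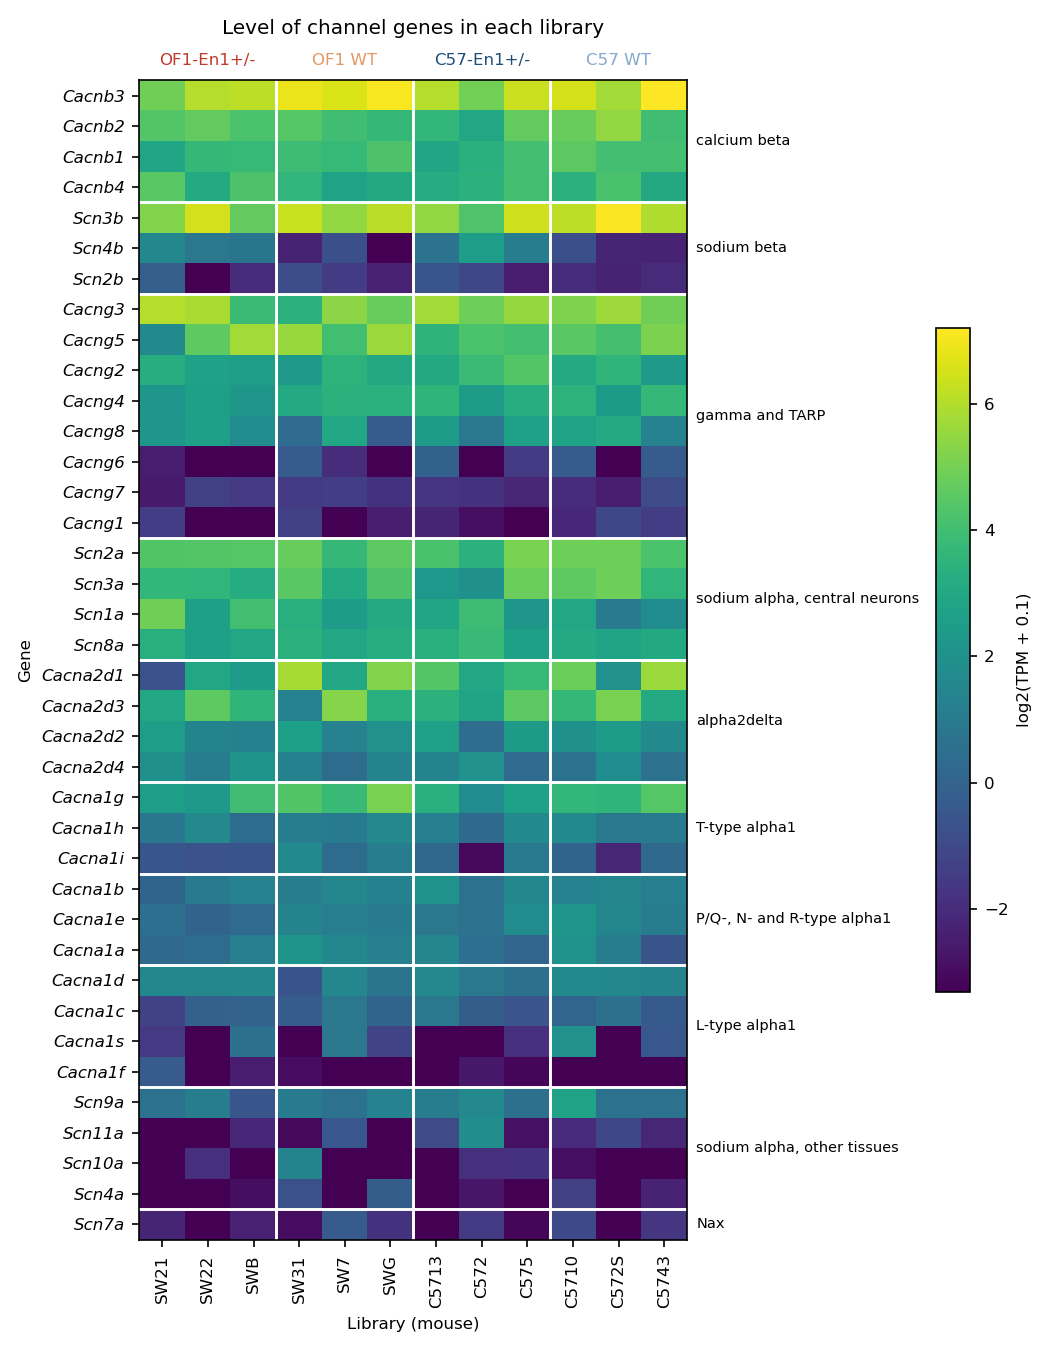
Level of the channel genes (rows, by class) in each of the 12 libraries (columns, by group), as log2(TPM + 0.1). The auxiliary subunits Cacnb3 and Scn3b are the brightest rows, and the calcium alpha1 genes other than Cacna1g lie below 10 TPM in every library.

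Among the auxiliary subunits, the calcium beta genes summed to between 59.4 and 188 TPM. Cacnb3, a cytoplasmic beta subunit, accounted for 37.6% (SW21) to 78.6% (C5743) of this sum. Its normalized counts were 1822, 3588 and 4320 in OF1-En1+/- mice, against 6277, 6456 and 8004 in OF1 WT, and 4248, 2206 and 4771 in C57-En1+/- mice, against 4402, 2857 and 8909 in C57 WT. The OF1 groups did not overlap, while the C57 groups did. Scn3b, a sodium beta subunit abundant in immature neurons, had 3454, 7557 and 2493 normalized counts in OF1-En1+/- mice, against 7128, 4934 and 6823 in OF1 WT. In the C57 strain it had 4676, 2330 and 8491 in C57-En1+/- mice, against 5337, 11955 and 6033 in C57 WT. Both pairs of groups overlapped, and the highest Scn3b value belonged to C572S. Cacng3, a TARP, showed 3165, 2816 and 696 normalized counts in OF1-En1+/- mice, against 486, 2573 and 1663 in OF1 WT, and 3002, 1959 and 2608 in C57-En1+/- mice, against 1525, 2325 and 1516 in C57 WT. Its groups overlapped in both strains. For the whole gamma and TARP class the summed level varied little, between 69.8 and 102 TPM.

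Among the pore-forming sodium channel genes, Scn2a was highest with 22.2 ± 6.82 TPM, before Scn3a with 15.5 ± 8.84, Scn1a with 9.68 ± 7.67 and Scn8a with 8.77 ± 2.10 TPM. Scn2a and Scn3a are known as the alpha subunits of immature brain, and Scn1a and Scn8a as those that gain ground with maturation. The normalized counts of Scn2a were 3966, 3953 and 4169 in OF1-En1+/- mice, against 5052, 3018 and 4827 in OF1 WT, and 4328, 2618 and 6352 in C57-En1+/- mice, against 4504, 5090 and 4256 in C57 WT. It was the steadiest of the 4 by group, with log2 fold changes of -0.09 and -0.01 in the OF1 and the C57 strain. Scn9a, best known from sensory neurons, was the highest of the alpha genes of other tissues and had 91.5, 444 and 125 normalized counts in OF1-En1+/- mice, against 255, 354 and 377 in OF1 WT. In the other strain it had 273, 874 and 241 in C57-En1+/- mice, against 765, 297 and 198 in C57 WT, again with overlap. Scn7a, which encodes the sodium-sensing channel Nax, lay between 0 and 150 normalized counts.

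The make-up of these 4 central alpha genes differed strongly from library to library. Scn1a took 41.2%, 13.6% and 29.3% of their summed TPM in OF1-En1+/- mice, against 14.3%, 15.7% and 14.1% in OF1 WT. In the C57 strain its share was 18.2%, 34.6% and 6.34% in C57-En1+/- mice, against 11.3%, 2.78% and 7.98% in C57 WT. The lowest share was that of C572S, and SW22 was the lowest of the OF1-En1+/- libraries. As a ratio of TPM, Scn1a stood to Scn3a at 2.42, 0.513 and 1.77 in OF1-En1+/- mice, against 0.445, 0.628 and 0.441 in OF1 WT, and at 1.50, 3.94 and 0.164 in C57-En1+/- mice, against 0.327, 0.0639 and 0.282 in C57 WT. The groups overlapped in both strains, because SW22 and C575 lay among the WT values. By edgeR, Scn1a had log2 fold changes of 0.83 ± 0.551 (SE) in the OF1 strain and 1.24 ± 0.555 in the C57 strain, with adjusted p of 0.675 and 0.557, and so did not pass. Markers of oligodendrocytes, the myelin-forming cells, summed to 934 to 1988 TPM over 5 genes in OF1-En1+/- mice, against 252 to 697 TPM in OF1 WT, and to 125 to 2902 TPM in C57-En1+/- mice, against 152 to 580 TPM in C57 WT. SW21 and C572, which had the highest Scn1a to Scn3a ratios, also had the highest of these sums, and their part in the ratio was not tested.

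**Figure D2:**
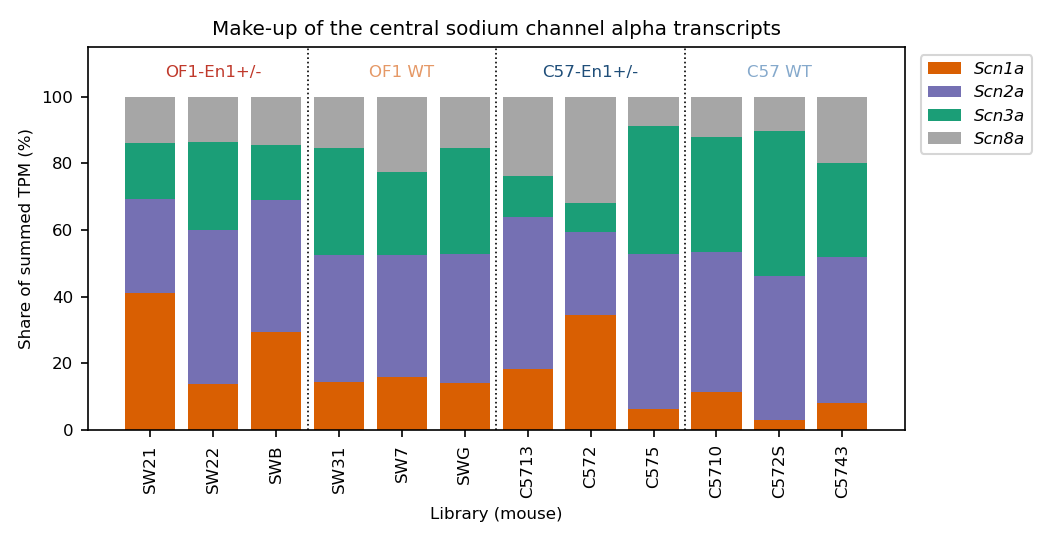
Share of Scn1a, Scn2a, Scn3a and Scn8a in their summed TPM (percent, stacked bars) in each library, with dotted lines between the groups. The Scn1a share runs from 2.78% in C572S to 41.2% in SW21.

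The first question was which channel genes differed between hemizygous and WT mice within a strain. With edgeR's quasi-likelihood test and Benjamini-Hochberg adjustment over all 18017 tested genes, 0 of the 35 members passed an adjusted p of 0.05 in either strain, against a background of 0% of all genes in the OF1 and 0% in the C57 strain. At an unadjusted p under 0.05 there were 7 members in the OF1 strain, against 9.29% of all genes, and 4 members in the C57 strain, against 8.89% of all genes. These counts moved with single libraries, and so did the shares of all genes. The OF1 count was 4 without SW21, SW31 or SWG, against 6.61%, 8.79% and 6.24% of all genes. The C57 count was 1 without C572, against 4.65% of all genes, and 7 without C575, against 13.1%. It was 2 without any 1 of the C57 WT libraries, against 6.65% to 7.24% of all genes. DESeq2 called 0 members in the OF1 strain, against 1.12% of all genes, and 1 member, Scn4b, in the C57 strain, against 0.411% of all genes. For the mean of both strains edgeR called 0 of 35, against 0% of all genes, with 7 members at an unadjusted p under 0.05, against 11.4% of all genes, and DESeq2 again called Scn4b alone, against 1.33% of all genes.

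Scn4b encodes the sodium beta4 subunit, which is linked to alpha subunits by a disulphide bond and is known for resurgent sodium current. The gene lies on the forward strand of chromosome 9 (GRCm39, 45049595 to 45065452), next to Scn2b. It had 373, 198 and 205 normalized counts in OF1-En1+/- mice, against 11.8, 70.1 and 0 in OF1 WT. In the C57 strain it had 208, 862 and 261 in C57-En1+/- mice, against 49.7, 13.3 and 14.0 in C57 WT. All 6 hemizygous libraries lay above all 6 WT libraries, and the lowest hemizygous value was 2.82 times the highest WT value. Such a separation of 6 from 6 libraries was found in 0.771% of all tested genes, and in 0.233% with the hemizygous libraries higher. Scn4b was the only member to show it. Of the 2 libraries with high Th, SW22 had the lowest hemizygous value and C572S the third lowest WT value.

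The log2 fold change of Scn4b was 3.21 ± 1.17 (SE) in the OF1 strain and 4.17 ± 1.20 in the C57 strain, with edgeR adjusted p of 0.475 and 0.520. For the mean of both strains it was 3.69 ± 0.838, with an unadjusted p of 0.000904 and an adjusted p of 0.335. DESeq2 gave adjusted p of 0.0940 in the OF1 strain, 0.0210 in the C57 strain and 0.000406 for the mean of both strains, and so the call rests on the tool. Without SW7 the estimate in the OF1 strain was 5.79 (adjusted p = 0.202) and without SWG, which had 0 reads, 2.61 (adjusted p = 0.794). Without C572, whose value was the highest, the edgeR estimate in the C57 strain was 3.21 (adjusted p = 0.980). That of the mean of both strains was then 3.22 (adjusted p = 0.545). DESeq2 was not run without C572. Reads of Scn4b came from 1 annotated transcript and ranged from 0 to 825 per library, and 107 bases of its exons overlap the antisense long non-coding RNA Gm39327, from which an unstranded library cannot separate them. The adjoining Scn2b, another disulphide-linked beta subunit, had 0 to 95.1 normalized counts and no such separation.

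The 5 protein-coding genes whose order over the 12 libraries was most like that of Scn4b were Pmp22 (Spearman's rho 0.965), AU021092 and Syndig1 (0.923 each), and Immp2l and Cmtm3 (0.916 each). This likeness is a description over 12 libraries that share their group structure. Pmp22, a myelin protein of peripheral nerve, had 593, 509 and 499 normalized counts in OF1-En1+/- mice, against 241, 483 and 194 in OF1 WT. It had 674, 11594 and 2240 in C57-En1+/- mice, against 445, 380 and 290 in C57 WT, and C572 was by far the highest library. In C572 the summed markers of cholinergic and motor neurons reached 838 TPM, against at most 130 TPM in any other library. Among the members themselves Scn4b was most like Cacng3 (0.559) and least like Cacnb1 (-0.692).

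Because En1 is a homeodomain factor, the stretches before the start sites were read from RefSeq (GRCm38.p6), 250 bases before and 50 after each start. They are shown for Scn4b, as the member separated by genotype, and for Cacna1e, as the member DESeq2 called between strains. The exact sequences occur once each in GRCm39, for Scn4b at chr9:45049672-45049971 on the forward strand and for Cacna1e at chr1:154601617-154601916 on the reverse strand. These RefSeq starts lie inside the GENCODE genes, 327 bases after the start of Scn4b and 158581 bases after that of Cacna1e, so neither stretch is the one before the outermost start. Capitals mark TAATT, the first letters of the homeodomain core TAATTA, searched on both strands after the sequences had been seen.
Scn4b: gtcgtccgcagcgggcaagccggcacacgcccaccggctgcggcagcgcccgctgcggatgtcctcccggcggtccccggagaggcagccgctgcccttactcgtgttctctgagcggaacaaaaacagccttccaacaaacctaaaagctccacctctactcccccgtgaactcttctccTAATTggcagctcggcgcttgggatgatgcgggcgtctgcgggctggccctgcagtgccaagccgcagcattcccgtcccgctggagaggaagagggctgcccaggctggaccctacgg
Cacna1e: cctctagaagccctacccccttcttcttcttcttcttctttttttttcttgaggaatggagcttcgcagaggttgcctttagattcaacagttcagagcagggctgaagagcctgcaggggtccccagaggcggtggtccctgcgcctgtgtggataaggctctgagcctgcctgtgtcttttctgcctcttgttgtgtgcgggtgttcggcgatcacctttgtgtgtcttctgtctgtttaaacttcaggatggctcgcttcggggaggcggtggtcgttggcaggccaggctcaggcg
The Scn4b stretch held TAATT once and had 66.3% G and C, and that of Cacna1e did not hold it and had 55.3%. Over the family, 41 promoters of 30 members were listed. TAATT was found in 24.4% of them, against 27.0% of all 32851 promoters listed, and the full TAATTA in 0% of them, against 5.29% of all. A match of letters is not a binding site, and nothing follows from its absence in these windows.

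Beyond Scn4b, the hemizygous libraries of the OF1 strain lay below the WT libraries in 8 members, Cacna1a, Cacna1e, Cacna1h, Cacna1i, Cacna2d1, Cacnb1, Cacnb3 and Cacng4. With Scn4b this makes 9 of 35 members without overlap, against 15.7% of all tested genes. In the direction of lower hemizygous values it was 22.9% of members, against 8.04% of all tested genes, and in the direction of higher ones it was Scn4b alone, against 7.68%. The median log2 fold change of the 35 members was -0.47, with 9 above and 26 below 0, and that of all tested genes was -0.01, with 50.9% of them below 0. In the C57 strain only Scn4b was without overlap, with higher hemizygous values, against 14.3% of all tested genes in either direction and 6.2% in that direction, and the median of the members was -0.01 with 17 above and 18 below 0, against 49.6% of all tested genes below 0. The interaction, which is the OF1 difference minus the C57 difference, had a median of -0.64 in the members, 26 of which were below 0, and of -0.01 in all tested genes, of which 50.5% were below 0. It was called in 0 of 35 members by edgeR, against 0% of all genes, with 3 members and 7.22% of all genes at an unadjusted p under 0.05, and in 0 of 35 by DESeq2, against 0.233% of all genes. The strains' difference in how these genes stood between genotypes was thus not called for any single member.

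**Figure D3:**
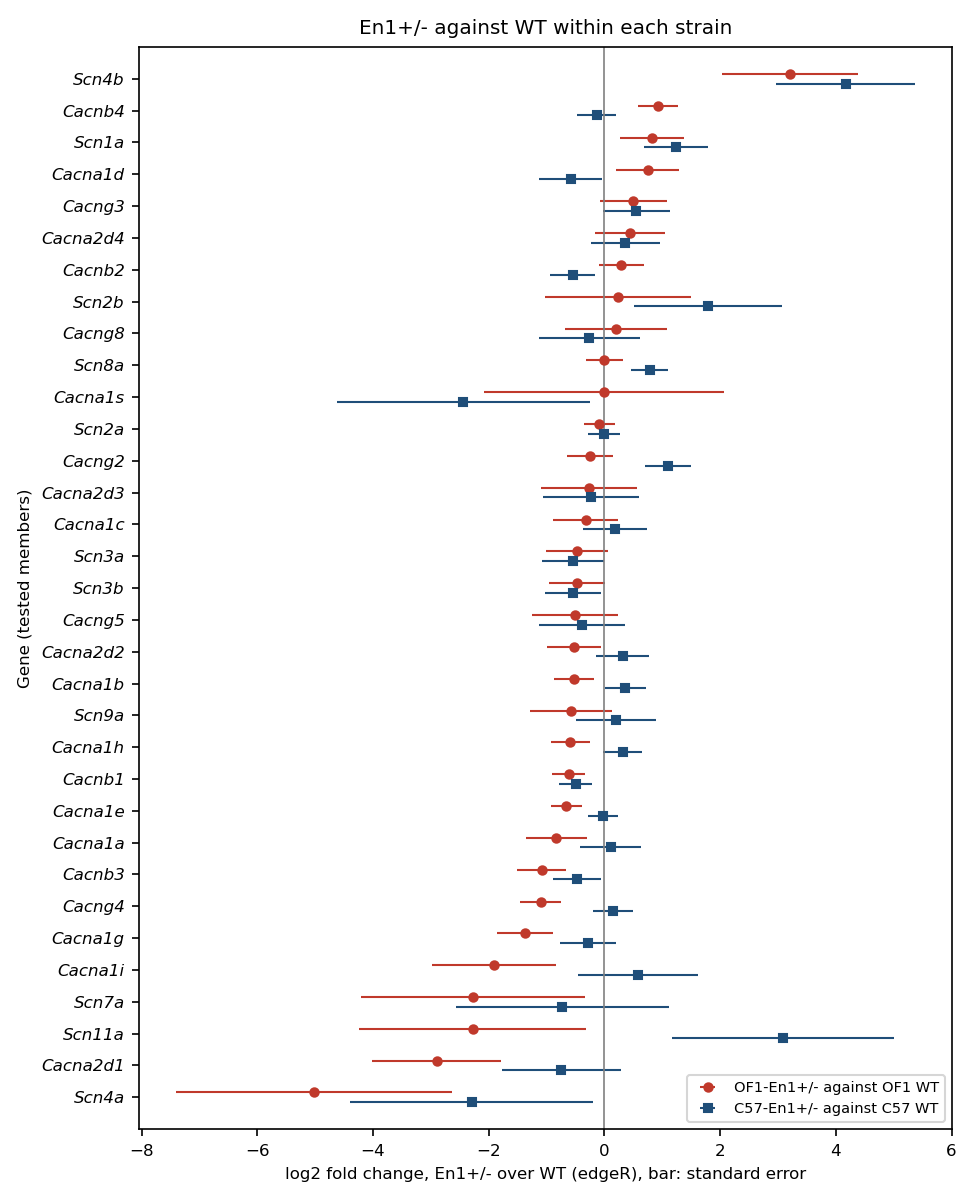
Log2 fold change of En1+/- over WT with its standard error for tested channel genes (edgeR, n = 3 libraries a group), in the OF1 strain (circles) and in the C57 strain (squares). Most OF1 values lie left of 0 (median of all 35 tested members -0.47), Scn4b lies right of 0 in both strains, and no value passed the adjusted threshold.

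Cacng4, a TARP, had the smallest unadjusted p of the family in the OF1 strain. Its normalized counts were 336, 502 and 405 in OF1-En1+/- mice, against 696, 1051 and 928 in OF1 WT, without overlap, and 965, 554 and 806 in C57-En1+/- mice, against 712, 405 and 1079 in C57 WT, with overlap. The log2 fold change was -1.10 ± 0.352 in the OF1 strain (edgeR adjusted p = 0.447) and 0.14 ± 0.346 in the C57 strain (adjusted p = 0.937), and the interaction had an adjusted p of 0.655. For Cacnb3 the values given above made a log2 fold change of -1.08 ± 0.421 in the OF1 strain (adjusted p = 0.494) and of -0.47 ± 0.416 in the C57 strain (adjusted p = 0.770).

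Cacna2d1, an alpha2delta subunit that is a target of gabapentin, was the most variable of the abundant members. It had 84.5, 1288 and 1013 normalized counts in OF1-En1+/- mice, against 9514, 1454 and 6980 in OF1 WT, and 4116, 1602 and 2393 in C57-En1+/- mice, against 4196, 673 and 9324 in C57 WT. The OF1 groups did not overlap although SW7 of the OF1 WT mice stood close to the hemizygous ones, and the log2 fold change there was -2.90 ± 1.11 (edgeR adjusted p = 0.495). Cacna1g, the main T-type alpha1 gene, had 998, 1007 and 1788 in OF1-En1+/- mice, against 3646, 1520 and 4736 in OF1 WT, and 1960, 829 and 1344 in C57-En1+/- mice, against 1056, 1256 and 2977 in C57 WT. Its OF1 log2 fold change was -1.37 ± 0.492 (adjusted p = 0.475), with overlap of the groups. Cacna1i, a T-type gene known from thalamus, had 155, 128 and 147 in OF1-En1+/- mice, against 755, 345 and 528 in OF1 WT, and 297, 5.23 and 454 in C57-En1+/- mice, against 194, 27.1 and 298 in C57 WT.

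Cacna2d1 and Cacna1g were highest in the libraries that were also highest in markers of subthalamic and other glutamatergic neurons. The 5 marker genes summed to 37.6, 101 and 103 TPM in OF1-En1+/- mice, against 1485, 387 and 1325 TPM in OF1 WT, and to 410, 52.7 and 332 TPM in C57-En1+/- mice, against 521, 149 and 1616 TPM in C57 WT. SW31, SWG and C5743 were the 3 highest in these markers and in both genes. The markers' part in the OF1 difference was not tested. Markers of GABAergic neurons ran differently, with 635, 350 and 254 TPM over 4 genes in OF1-En1+/- mice, against 11.3, 266 and 26.3 TPM in OF1 WT, and 343, 46.3 and 898 TPM in C57-En1+/- mice, against 276, 317 and 60.6 TPM in C57 WT. Pan-neuronal markers differed less, between 3368 and 5696 TPM over 5 genes.

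In the opposite direction, Cacnb4, a beta subunit with a role in cerebellum and motor control, had 3746, 1635 and 3232 normalized counts in OF1-En1+/- mice, against 2034, 1142 and 1363 in OF1 WT. In the C57 strain it had 2031, 1639 and 1882 in C57-En1+/- mice, against 1709, 3056 and 1559 in C57 WT. The OF1 groups overlapped through SW22, the C57 groups overlapped too, and the OF1 log2 fold change was 0.93 ± 0.341 (edgeR adjusted p = 0.478). With SW22 and C572S left out, DESeq2 called it, at a log2 fold change of 1.22 ± 0.290 and an adjusted p of 0.00432, together with Cacng4 at -1.26 ± 0.359 and 0.0295, against 1.98% of all genes called. For the mean of both strains it then called Cacnb4 and Scn4b, against 2.84% of all genes, whereas edgeR called 0 members without these 2 libraries. This setting was added after the data had been seen. In the C57 strain the members with an unadjusted p under 0.05 all had higher hemizygous values. They were Scn4b, Scn1a, Cacng2 and Scn8a, of which Cacng2 (stargazin, the first TARP described) had a log2 fold change of 1.09 ± 0.397 (adjusted p = 0.530) and Scn8a, an alpha subunit of the axon initial segment, of 0.78 ± 0.317 (adjusted p = 0.549). Without C572 the log2 fold change was 0.98 ± 0.449 for Cacng2, 0.33 ± 0.275 for Scn8a and 0.62 ± 0.544 for Scn1a, and of the 4 only Scn4b kept an unadjusted edgeR p under 0.05.

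**Figure D4:**
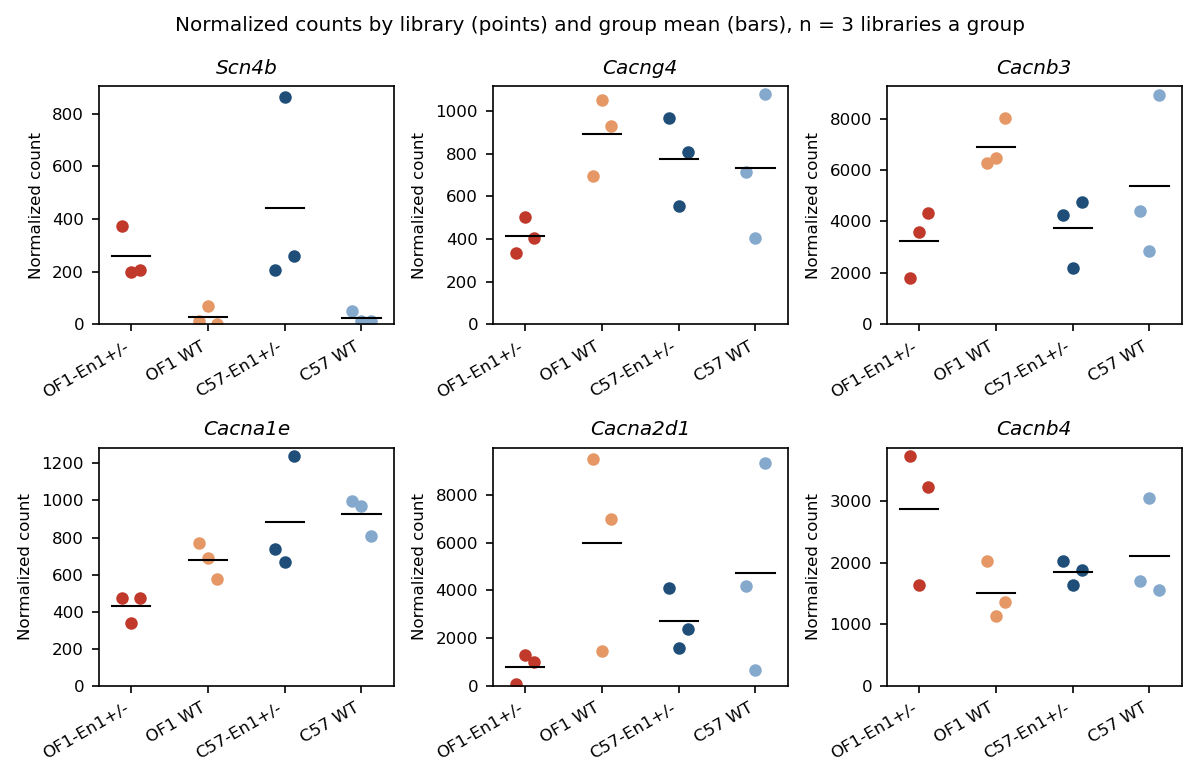
Normalized counts of 6 members in each library (points, n = 3 a group) with the group mean (bar), on linear axes from 0. Scn4b lies between 198 and 862 in the hemizygous libraries and between 0 and 70.1 in the WT libraries, and Cacna1e lies lower in each OF1 group than in the C57 group of the same genotype.

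The second question was which channel genes differed between strains. Among WT mice edgeR called 0 of 35 members, against 1.02% of all genes, and among hemizygous mice 0 of 35, against 0.966% of all genes. For the mean of both genotypes it was again 0 of 35, against 2.01% of all genes. An unadjusted p under 0.05 was reached by 1 member among WT mice, against 8.54% of all genes, by 4 members among hemizygous mice, against 8.13%, and by 2 members for the mean, against 8.59%. With DESeq2 the counts were 0 among WT mice, against 2.53% of all genes, 1 among hemizygous mice, against 2.46%, and 1 for the mean, against 3.62%.

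The member DESeq2 called was Cacna1e, the R-type alpha1 gene, on chromosome 1 (GRCm39, 154266477 to 154760247, reverse strand). It had 472, 342 and 473 normalized counts in OF1-En1+/- mice, against 740, 669 and 1240 in C57-En1+/- mice. Among WT mice it had 769, 690 and 575.05 in OF1 WT, against 998, 971 and 809 in C57 WT. Each OF1 group lay below the C57 group of the same genotype without overlap, although the highest OF1 library, at 769, was above the lowest C57 library, at 669. The log2 fold change was -1.04 ± 0.266 between the hemizygous groups (edgeR adjusted p = 0.136), -0.40 ± 0.263 between the WT groups (0.747) and -0.72 ± 0.187 for the mean of both genotypes (0.0903). DESeq2 gave adjusted p of 0.0203 between the hemizygous groups, 0.736 between the WT groups and 0.0154 for the mean, and limma voom with quality weights gave 0.0480 for the mean. En1 also lies on chromosome 1, and strain differences in the C57-En1+/- line near it cannot be told apart from genotype. Between C57-En1+/- and C57 WT, Cacna1e had a log2 fold change of -0.02 ± 0.262 (edgeR adjusted p = 0.991). Whether Cacna1e lies in DNA of OF1 origin in that line was not tested. Over the 12 libraries the protein-coding genes most like Cacna1e were Prpf38b (rho 0.958), Cacul1 (0.923), Ube2s (0.902), Slc5a3 (0.895) and Prcc (0.888), as a description.

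Among WT mice Cacna1e was without overlap with lower OF1 values, as were 8.57% of all tested genes, and Cacna1i with higher ones, as were 6.21%. For Cacna1i the log2 fold change between WT groups was 1.69 ± 1.05 (edgeR adjusted p = 0.729). Among hemizygous mice 3 members were without overlap, against 13.2% of all tested genes, all with lower OF1 values, against 6.75% in that direction. They were Cacna1e, Cacng4 with a log2 fold change of -0.91 ± 0.351 (adjusted p = 0.508) and Cacna2d1 with -1.77 ± 1.07 (adjusted p = 0.750). Over both genotypes, 0 of 35 members separated the 6 OF1 libraries from the 6 C57 libraries, against 2.39% of all tested genes. The median log2 fold change of the members was 0.19 among WT mice and -0.21 among hemizygous mice, against -0.01 and -0.02 for all tested genes.

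The third question was which members followed Slc6a3, the dopamine transporter and a marker of dopaminergic neurons. Slc6a3 had 205403 normalized counts in SW22 and 350647 in C572S, and between 4.18 and 3230 in the other 10 libraries, with a median of 29.6. Since these 2 libraries formed a cluster of their own, no pooled correlation over 12 is given. No member had SW22 and C572S as its 2 highest libraries, a pattern found in 3% of all tested genes.

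Over the 10 other libraries Pearson's r with Slc6a3, on log2(normalized count + 1), ran from -0.58 for Scn1a to 0.57 for Cacnb3, with 23 of 35 members above 0. After Benjamini-Hochberg adjustment over 18016 genes, 0 of 35 members passed the permutation test with 100000 resamples, and the smallest adjusted p of a member was 0.944. At an unadjusted p under 0.05 there were 0 members, against 4.75% of all genes. Spearman's rho gave 1 member at an unadjusted p under 0.05, against 4.17% of all genes, and 0 after adjustment. This was Cacna1s, the L-type gene of skeletal muscle, with a rho of 0.742 and an unadjusted permutation p of 0.0183. Cacna1s had 0 normalized counts in 5 libraries, among them SW22 and C572S, where Slc6a3 was highest. The others at 0 were SW31, C5713 and C572, so its ranks over the 10 libraries include ties at 0. Without C5743 and C5710, the pair farthest from the Slc6a3 median among the 10, r was 0.519 for Cacnb3 and -0.348 for Scn1a. Then 0 of 35 members passed the exact permutation test over 8 libraries. In these tests, over 10 and over 8 libraries, the smallest attainable p was too large for a lone gene to pass the adjustment. The counts of 0 after adjustment therefore cannot show that no single member followed Slc6a3.

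**Figure D5:**
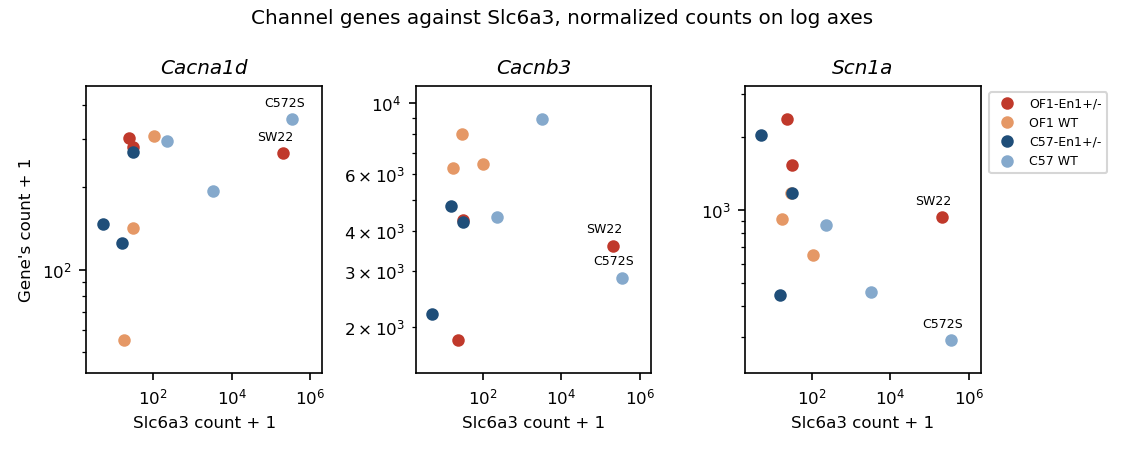
Normalized count (plus 1) of Cacna1d, Cacnb3 and Scn1a against that of Slc6a3 (plus 1) in each library, both axes logarithmic, colours by group. SW22 and C572S stand at 205403 and 350647 Slc6a3 counts, far right of the other 10 libraries, and Scn1a has its lowest value in C572S.

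Cacna1d, the gene tied to pacemaking, was not set apart in these 2 libraries. It had 303, 265 and 280 normalized counts in OF1-En1+/- mice, against 54.3, 307 and 141 in OF1 WT, and 268, 146 and 124 in C57-En1+/- mice, against 294, 353 and 192 in C57 WT. C572S was its highest library and SW22 the 7th. Only 14.0% of the reads of Cacna1d fell on protein-coding transcripts, while 76.0% fell on transcripts with a retained intron, and 1477 bases of its exons overlap Chdh on the opposite strand. For Cacnb2, whose highest library was also C572S, 20.3% of the reads fell on protein-coding transcripts.

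Of the other members, Cacna1b, the N-type gene of presynaptic terminals, had 245, 439 and 637 normalized counts in OF1-En1+/- mice, against 500, 793 and 616 in OF1 WT, and 813, 427 and 742 in C57-En1+/- mice, against 499, 527 and 579 in C57 WT, with overlap in both strains. Scn11a, known from nociceptive sensory neurons, reached 624 in C572 and at most 104 in any other library, in the same library that stood apart in cholinergic and motor markers. Scn4a, of skeletal muscle, reached 132 normalized counts at most.

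Other tested members are given by their range over the 12 libraries, in normalized counts. Among the alpha1 genes, Cacna1a (P/Q-type, a main channel of presynaptic release) ran from 53.2 to 166, Cacna1c (L-type) from 86.3 to 401, Cacna1h (T-type) from 221 to 628 and Cacna1s from 0 to 123. Cacna1a and Cacna1h were among the members with lower OF1-En1+/- values, at log2 fold changes of -0.83 ± 0.534 and -0.59 ± 0.337. The alpha2delta gene Cacna2d3 covered a wide range, from 212 to 3405, and its ratio to Cacna2d1 in TPM lay between 0.0446 in SW31 and 15.1 in SW21. Cacna2d2 ran from 209 to 962 and Cacna2d4 from 30.02 to 190. Of the beta genes, Cacnb1 ran from 519 to 1392 and Cacnb2 from 709 to 2642, both present in every library. Cacng5 spanned 292 to 4941, with its lowest value in SW21, and Cacng8, a TARP, 7.08 to 71.3. Scn3a ran from 964 to 5122, the lowest value being that of C572. The 5 genes below the minimum stayed at or under 33.4 in every library, that of Scn10a in C572.

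Several members lie side by side in the genome. Scn3a, Scn2a, Scn1a, Scn9a and Scn7a share a stretch of chromosome 2, Scn10a and Scn11a one of chromosome 9, and Cacng1, Cacng4 and Cacng5 one of chromosome 11. Within the first stretch the mean level ran from 22.2 TPM for Scn2a to 0.167 TPM for Scn7a, and within the last from 26.3 TPM for Cacng5 to 0.132 TPM for Cacng1.

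Genes whose products bind or regulate these channels were counted on a list of 32, of which 31 were tested. Calls numbered 0 in all 7 comparisons with both edgeR, against 0% to 2.01% of all genes, and DESeq2, against 0.233% to 3.62%. The smallest edgeR adjusted p was 0.342, that of Rrad, a small GTPase that inhibits calcium channels through the beta subunit, at a log2 fold change of -1.31 ± 0.398 for the mean of both strains. Nedd4l, a ubiquitin ligase of sodium channels, had a log2 fold change of -0.63 ± 0.202 there (adjusted p = 0.348). At an unadjusted edgeR p under 0.05 there were 1 member of the list in the OF1 strain, against 9.29% of all genes, and 3 in the C57 strain, against 8.89%.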

How the data were processed

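Total RNA of laser-captured SNpc from 12 mice was amplified with SMART-Seq v4 and sequenced in pairs without strand. The authors quantified it with Salmon on GENCODE transcripts (GRCm39), and deposited per transcript the estimated counts, TPM and the effective length. Transcripts were summed per gene with GENCODE M39 (99.1% of 140790 matched), and estimated counts were rounded to whole numbers. Normalized counts are counts over the TMM effective library size, times the geometric mean of those sizes. Genes with a mean of at least 10 were tested (18017).

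The test was edgeR 4.0.16 (TMM, robust quasi-likelihood, 1 mean for each group, all 12 libraries), with Benjamini-Hochberg adjustment over all tested genes. Standard errors are the fold change over the square root of F. DESeq2 1.42.0, the tool of the study, and limma voom were alternatives, as were other scaling, no filter, length offsets, and libraries left out. Correlations with Slc6a3 used permutation over 10 libraries.

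The code was tested on simulated data. Depth ran from 13538864 to 168741283 estimated counts a library. The members, classes and lists were chosen with earlier results of these data known. Members are given in every library if called by edgeR or DESeq2, if among the 3 smallest p without overlap in a 2-group comparison, if SW22 and C572S were their 2 highest libraries, or if highest in their class, and Cacnb4 was added after its values were seen. Some members named by this rule are not reported here.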

Additional observations from a re-analysis of the deposited data

How the results depend on the processing

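With edgeR, 0 members passed in each of the 7 comparisons, and this held when scaled by relative log expression, when genes of any count were kept, with offsets for transcript length, with only the libraries compared (in the 4 comparisons of 2 groups), without SW22 and C572S, and without each library in turn. Limma voom with quality weights also gave 0, except 1 (Cacna1e) for OF1 against C57, mean of both genotypes. DESeq2 gave 1 member for C57-En1+/- against C57 WT, 1 for OF1-En1+/- against C57-En1+/-, 1 for the mean of both strains and 1 for the mean of both genotypes, and 0 in the other 3 comparisons. DESeq2 without SW22 and C572S, added after the data had been seen, gave 2 for OF1-En1+/- against OF1 WT (Cacnb4 and Cacng4), 2 for En1+/- against WT, mean of both strains (Cacnb4 and Scn4b), and 0 elsewhere. Cacna1e was thus called with DESeq2 only while these 2 libraries were included. Why the tools differed was not tested. Of the log2 fold changes given for members named by a comparison, 12 in number, 0 of 238 alternative values reversed in direction. The groups behind these values did not overlap (for the means, within each strain or genotype), so leaving libraries out could hardly reverse them. The 0 is therefore no measure of how firm these differences are. Scn4b for the mean of both strains ran from 3.22 to 5.31 over its alternatives, with adjusted p from 0.000406 to 0.611, and Cacna1e for the mean of both genotypes from -0.80 to -0.57, with adjusted p from 0.0154 to 0.367. Members following Slc6a3 numbered 0 under every alternative run. No paired analysis was possible because the labels give the groups no shared replicate numbers. With 3 libraries a group, an exact permutation test could not go below 0.1. Low members such as Scn2b, Scn4a, Scn7a and Scn11a had libraries at or near 0 reads, so their fold changes are imprecise.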
